A study of Rattus norvegicus with 8 samples.

Results

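The livers of obese and lean rats that had received vehicle alone were compared, using the Cy3 channel of 4 arrays of obese rats and 4 arrays of lean rats. These 8 channels were chosen by the genotype and dye given in the labels, out of 16 channels on the 8 dual-colour arrays of the study. All rats were male Zucker diabetic fatty rats labelled as 12 weeks old, lean ones being fa/+ and obese ones fa/fa. On each array the Cy5 channel held liver RNA of rats of the same genotype given testosterone undecanoate (TU, 20 mg/kg under the skin), which shared the normalization with Cy3 and is compared at the end. The labels call the arrays biological replicates. The number of animals behind an RNA, their feeding state and the hour of tissue collection are not given in the sources used here. Vehicle contained propylene glycol and was injected on the TU schedule, at first every few days and later weekly, over 4 weeks. The lean rats carry 1 fa allele, so they are not wild type. P-values measure the spread between these arrays. All tissue is whole liver, in which fewer cells of a type and less RNA per cell cannot be told apart.

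The fa allele disables the receptor for leptin, the fat-cell hormone that restrains feeding, and fa/fa rats overeat and become obese, with males of this strain turning diabetic. Insulin and dietary sugar switch on the liver enzymes that build fatty acids, while fatty acids themselves act through the receptor PPAR alpha to switch on the enzymes that burn them. Liver also differs between the sexes in rats, because the pulses of growth hormone in males keep male-biased genes on and female-biased genes off.

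Some properties of the arrays come before the genes. The lean arrays lay on another slide than the obese ones, which means that effects of slide and of genotype cannot be told apart. Spike-in RNA, which is added at labelling and does not come from the rats, read lower on the obese arrays for all 10 spike-in RNAs (mean difference -1.63 log2 relative to each array's 75th percentile, exact permutation test over 4 against 4 arrays, two-sided p = 0.0286, the smallest this design allows). After the normalization used for the genes below, the mean spike-in difference was still -1.31, with all 10 lower (-1.52 to -0.97). Gene differences are on that same scale. In addition, spots near the rim of the array read low on the obese slide. Among features with a lean level above 9, the median difference was -2.05 in the 2 outermost rows, -0.47 in rows 11 to 20 from the rim and 0.05 from row 81 inward. Spike-in spots in the 5 outermost rows or 2 outermost columns lay within 0.03 to 0.10 of the inner ones on the lean arrays, and at -0.47, -0.26, -0.20 and -2.01 on obese arrays 1 to 4. Therefore each list is given also without outer spots, meaning those in the first and last 40 rows or 5 columns (24% of spots), and a probe in that zone is called an outer probe. Obese array 1 stood apart from all others on the second principal component (72.3, others -25.2 to 4.14). Between 62.4% and 69.1% of probes were well above background on lean arrays and 58.4% to 62.1% on obese arrays.

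**Figure D1:**
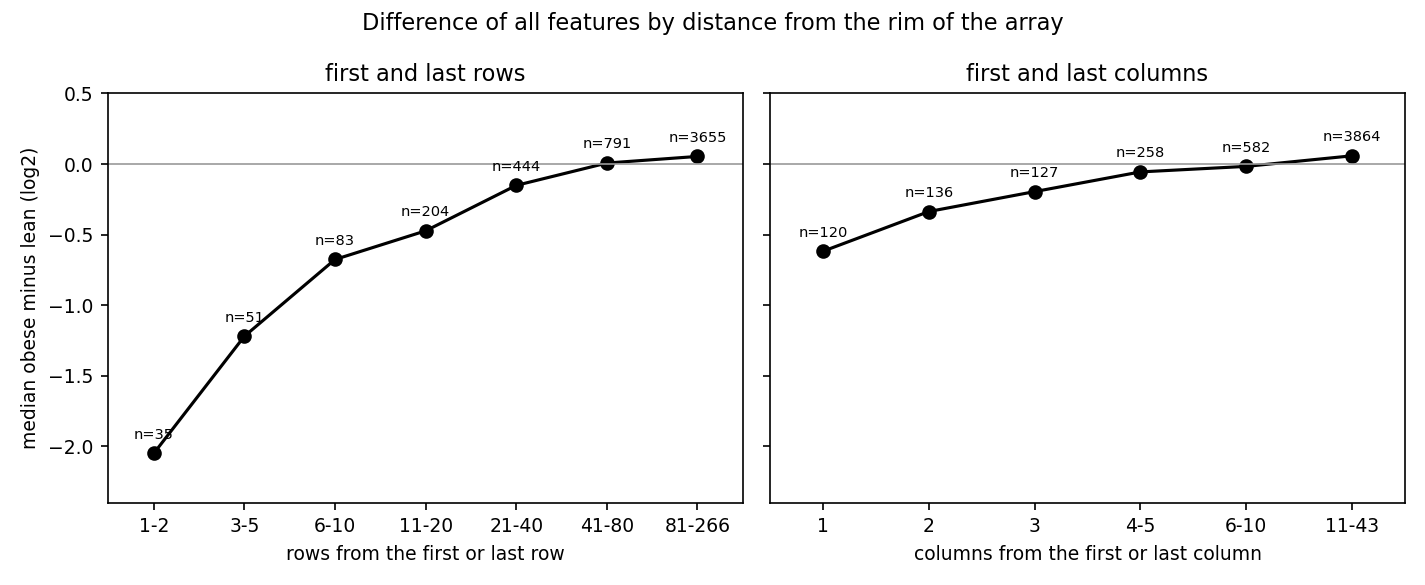
Median obese minus lean difference (log2, vertical axis) of features with a lean level above 9, by distance from the nearest rim in rows (left) or columns (right), with the number of features at each point. The median falls from 0.05 far from the rim to -2.05 in the 2 outermost rows.

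Of 23900 features tested with limma, 1821 were higher and 1787 lower in obese liver at an adjusted p under 0.05 (7.62% and 7.48%, or 15.1% together). A feature is a named gene, represented by its brightest probe, or a probe without a gene name. Of the 9913 named genes, 963 were higher and 606 lower (9.71% and 6.11%), and 113 and 153 of these differed at least 2-fold. With outer spots left out, 1564 of 18711 features were higher and 834 lower (8.36% and 4.46%), and among named genes 845 of 7978 were higher and 259 lower (10.6% and 3.25%). The counts of every list below stand beside these shares of all named genes. A list count near them is no result about that list. The lists were chosen with earlier results of these data known, so the rank of a list is a description only. Outer probes made up 902 of the 1787 lower calls and 214 of the 1821 higher calls. When each array was only centred on its 75th percentile, the median of all features moved to 0.24 and 40 features were higher and 329 lower (0.167% and 1.38%, 10.8% of calls higher, against 50.5% before). From the scanner software's processed signals the counts were 2253 and 3052 (42.5% higher). Without obese array 1 they were 2306 and 2737, without obese array 4 1176 and 1343, and without a single lean array 693 to 772 and 811 to 927. Levels below are log2 of the normalized Cy3 signal and differences are obese minus lean in log2 units with their SE. Groups that did not overlap are described as such, which was so for 26.4% of all features and for 3564 of the 3608 called ones. Genes named for the size of their difference were picked from called genes without overlap, so their separation was fixed by the choice. A call is said to hold where it passed whichever 1 of the 8 arrays was left out. Lean arrays correlated with one another at r = 0.9855 to 0.997 and obese arrays at 0.9354 to 0.981, while the fit took the same spread for both groups. Leaving out any lean array lowered the counts over all features, so a call lost without each lean array does not single out an array or gene. With 75th percentile centring the calls of higher genes named below were lost except where their passing is stated, as were those of the lower genes Acsl3, Acadm, Acot3, Igfbp3, Acat2, Abcg8, Mid1ip1, Socs2, Srd5a2, Nr1i3, Cyp2j3, Bmal1, Hsp90b1, Creld2, Sdf2l1, Mmp2, Cfd, Cldn4, Tek, Cd3d, Cd3g and Gzmb. A spot that the scanner software flagged as an outlier has no value, and the fit then drops that array for that gene.

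**Figure D2:**
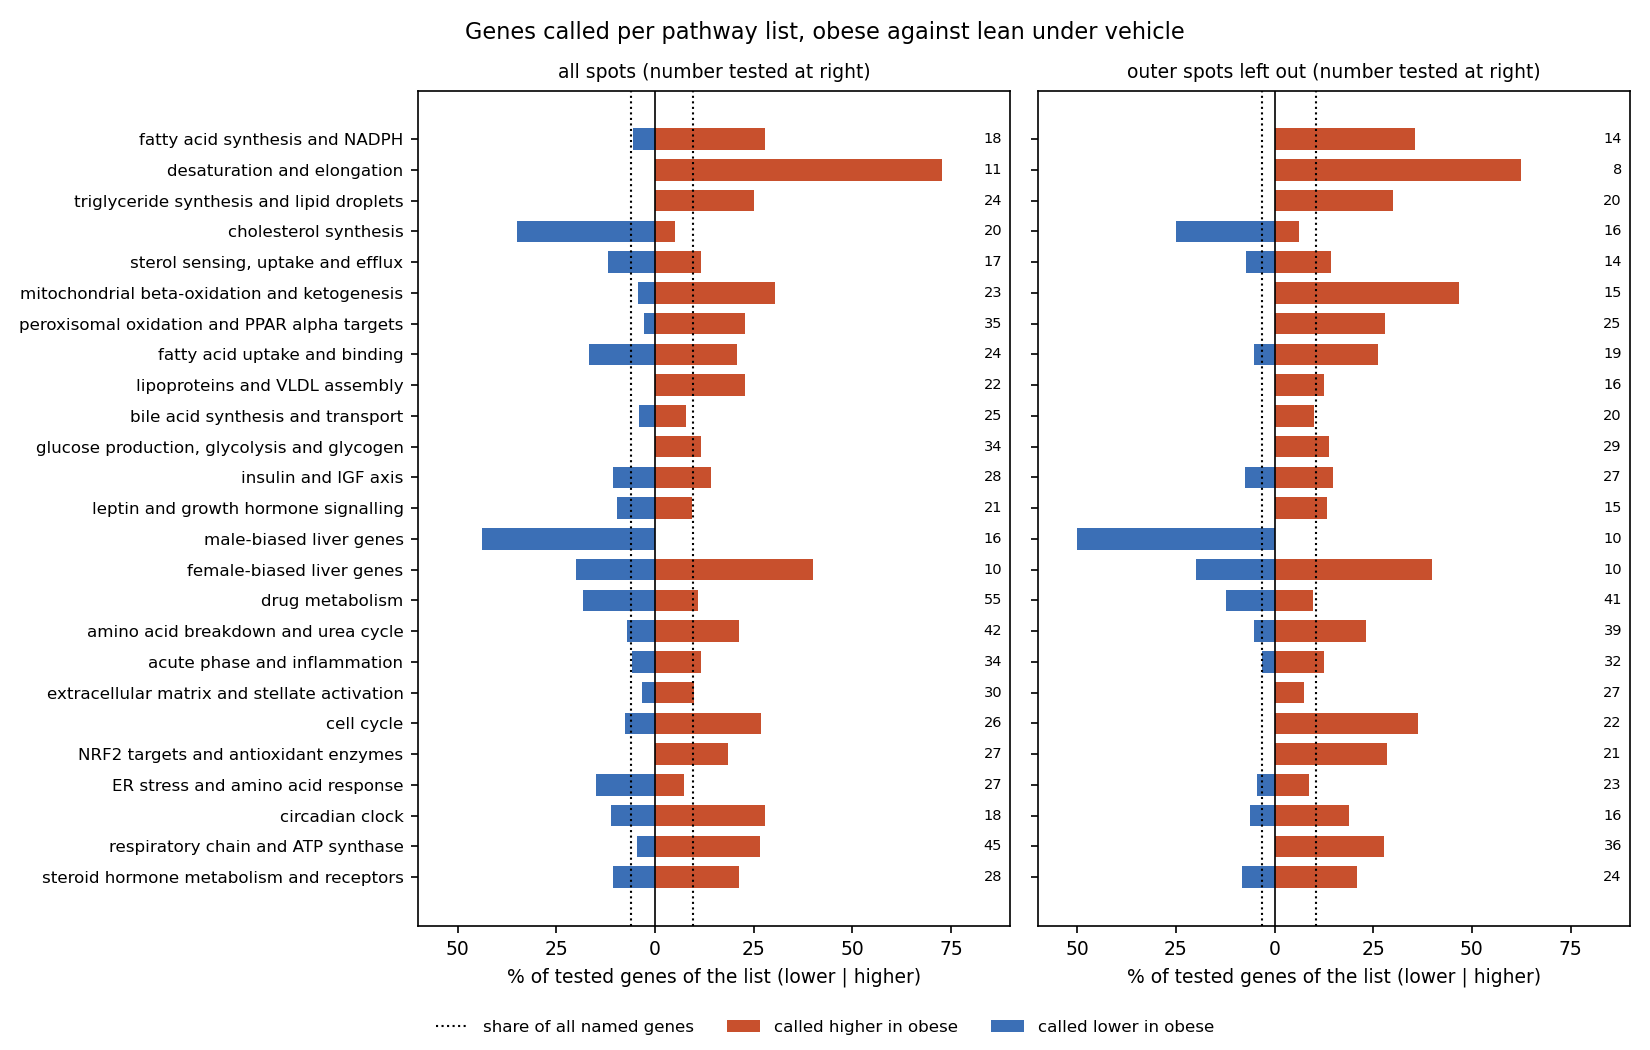
Share of the tested genes of each pathway list called higher (right of 0) or lower (left of 0) in obese liver, in percent, with all spots (left panel) and with outer spots left out (right panel). Dotted lines mark the share among all named genes (9.71% higher and 6.11% lower, then 10.6% and 3.25%), and the desaturation and elongation list reaches furthest to the right.

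Within the list of fatty acid synthesis, Fasn had the largest higher difference. Of 18 tested genes of fatty acid synthesis and NADPH supply, 5 were higher and 1 lower, and with outer spots left out 5 of 14 were higher and none lower. The median difference was 0.70 (0.87 without outer spots, 0.41 with 75th percentile centring), beside 0.04 for all named genes (0.07 without outer spots). With 1 array left out the higher count was 2 without each lean array and 11 without obese array 3. Fasn, the synthase that assembles palmitate, lay at 13.85, 14.45, 14.55 and 14.11 on lean arrays 1 to 4 and at 17.57, 17.44, 16.28 and 16.44 on obese arrays 1 to 4. The groups did not overlap, and the difference of 2.69 ± 0.33 is 6.47-fold (adjusted p = 0.00275, held), with a second probe at 1.41. The malic enzyme Me1, a source of NADPH for lipid synthesis, depended on the probe. Its brightest probe was an outer one with 1.34 ± 0.40 (adjusted p = 0.0647), and the inner probe gave 9.89 to 10.62 in lean and 12.00 to 12.84 in obese liver (2.31 ± 0.23, adjusted p = 0.00219). Acly, which makes cytosolic acetyl-CoA, was not called at 1.36 ± 0.42 (adjusted p = 0.0674), nor was the carboxylase Acaca at 0.47 ± 0.32 (adjusted p = 0.374), for which lean array 3 gave no value. Its isoform Acacb at the mitochondrial membrane was higher by 0.54 ± 0.13, as were Thrsp, a lipogenic response gene, by 1.15 ± 0.31 and the malonyl-CoA decarboxylase Mlycd by 0.89. These 3 calls were lost without each lean array in turn (adjusted p up to 0.0917, 0.126 and 0.0982), those of Acacb and Thrsp also without obese array 1, that of Thrsp also without obese arrays 2 and 4, and Thrsp also without outer spots (0.0519). The lower gene, Mid1ip1, which activates the carboxylase, was read on an outer probe at -0.71, while an inner probe gave 0.17 without a call.

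Desaturation and elongation genes, which turn palmitate into longer and unsaturated fatty acids, had the highest share of higher calls of any list, 8 of 11 tested with none lower (5 of 8 without outer spots). Their median was 1.16 (1.15 without outer spots, 0.92 with 75th percentile centring), and with 1 array left out there were 2 higher without each lean array, 3 without obese array 4 and 7 or 8 without the others. The stearoyl-CoA desaturase Scd lay at 14.16, 14.06, 14.21 and 14.01 in lean and at 16.93, 16.36, 15.60 and 15.60 in obese liver (2.01 ± 0.29, 4.03-fold, adjusted p = 0.00539, held). The groups were well apart, although this single probe was an outer one, where obese arrays read low. Elovl6, the elongase that makes stearate, lay at 9.23, 9.96, 9.84 and 9.45 against 13.29, 12.16, 10.55 and 11.51 (2.26 ± 0.53, adjusted p = 0.0305, a second probe 1.54). Elovl2, which elongates polyunsaturated fatty acids, was higher by 1.17 ± 0.13 (adjusted p = 0.00193, held, a second probe 1.41). Fads2, the first desaturase of that route, was higher by 1.80 ± 0.37 on an outer probe, Elovl5 by 0.77 and the elongation cycle enzymes Hsd17b12 and Tecr by 1.16 and 1.13. The calls of Elovl6, Fads2, Elovl5, Hsd17b12 and Tecr were lost without each lean array (adjusted p up to 0.0883, 0.0618, 0.0756, 0.0737 and 0.0971), all of these but Fads2 also without obese array 4, and Tecr also without obese array 1. Scd2, a stearoyl-CoA desaturase like Scd, lay at 8.08, 9.64, 10.23 and 9.89 in lean and 10.43, 13.98, 12.31 and 12.41 in obese liver (2.82 ± 0.77, adjusted p = 0.0472). Its lowest obese value was just above the highest lean one, its other probes gave -0.51 and 0.05, and the call was lost without outer spots (0.0517), without each lean array and without obese arrays 2, 3 and 4 (adjusted p up to 0.116).

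**Figure D3:**
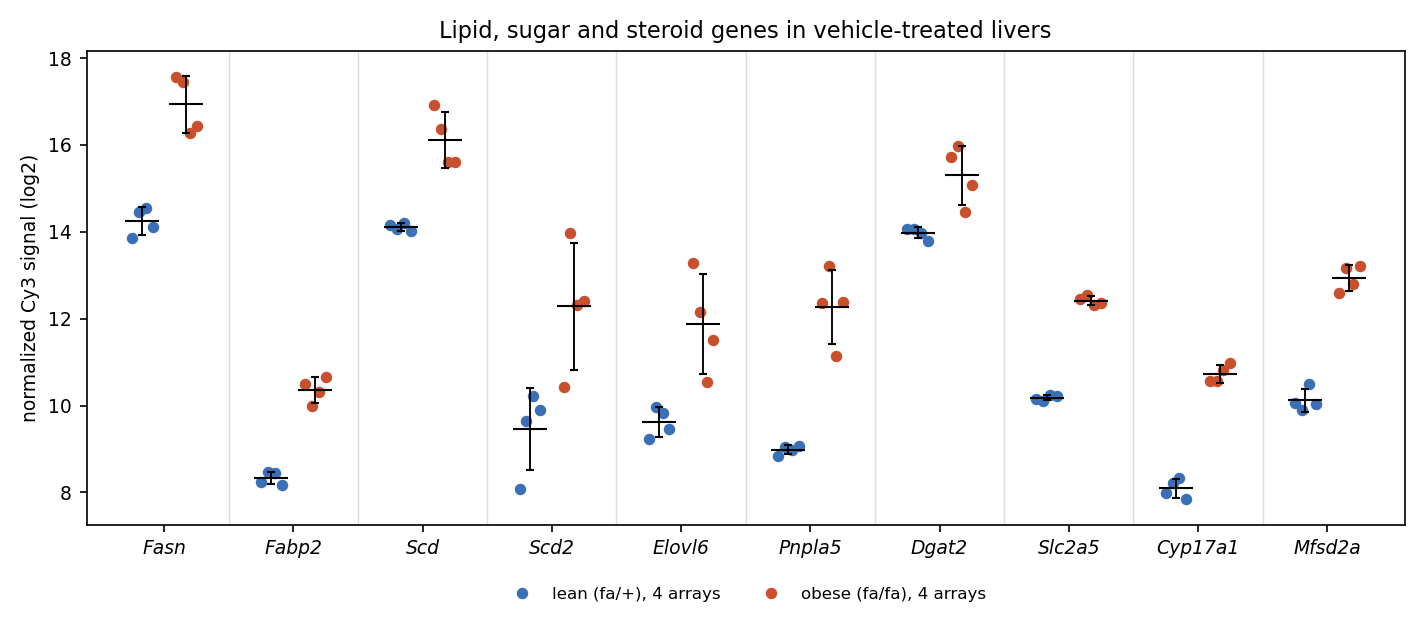
Normalized Cy3 level (log2) of 10 genes on each lean (blue) and obese (orange) array, with black lines for the mean and SD of 4 arrays. Lean and obese points are apart for each gene shown, and Scd2 comes closest (highest lean value 10.23, lowest obese value 10.43). Genes named for the size of their difference were picked from called ones without overlap, so their separation was fixed by the choice.

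The promoters of Scd2, Fgf21 and Dbp are shown because these genes had the largest higher differences of desaturation, PPAR alpha target and clock genes. The table of RefSeq promoters used here (GRCr8) had an entry for 157 of the 200 genes named with values. Each run is the 250 bases before the gene's start, read along the gene's strand, with matches in capitals. The motifs searched on both strands were CCAAT, the E-box CACGTG, the sterol element TCACNCCAC, the TATA box TATAAA, the STAT-type palindrome TTCNNNGAA and the D-box TTATGNAA. They are not nested in one another, and 34.0%, 5.59%, 0.974%, 12.9%, 7.67% and 3.28% of 33465 promoters held them.
Scd2 (chr1:253118127-253118376, plus strand): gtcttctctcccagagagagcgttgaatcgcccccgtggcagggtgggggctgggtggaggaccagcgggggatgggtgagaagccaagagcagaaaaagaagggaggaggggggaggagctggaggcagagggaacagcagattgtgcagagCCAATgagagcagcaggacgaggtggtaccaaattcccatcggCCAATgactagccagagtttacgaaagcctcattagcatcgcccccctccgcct
Fgf21 (chr1:105221377-105221626, minus strand): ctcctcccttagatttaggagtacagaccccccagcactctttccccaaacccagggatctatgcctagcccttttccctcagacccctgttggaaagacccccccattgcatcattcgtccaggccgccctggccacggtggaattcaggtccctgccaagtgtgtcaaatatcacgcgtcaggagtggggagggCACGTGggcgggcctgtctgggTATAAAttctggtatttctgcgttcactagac
Dbp (chr1:105312006-105312255, plus strand): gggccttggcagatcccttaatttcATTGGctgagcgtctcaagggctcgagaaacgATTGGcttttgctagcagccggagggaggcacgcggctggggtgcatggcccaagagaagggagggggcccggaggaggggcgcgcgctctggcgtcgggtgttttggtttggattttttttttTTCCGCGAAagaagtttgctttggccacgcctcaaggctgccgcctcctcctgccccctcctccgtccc
Scd2 held 2 CCAAT matches on its own strand, starting 97 and 54 bases before the start. Fgf21 held an E-box 54 and a TATA box 32 bases before the start. Dbp, like both others on chromosome 1, held 2 CCAAT matches on the opposite strand and 1 STAT-type palindrome. None of the 3 windows held the sterol element or the D-box. A match is a stretch of letters, and no binding was measured.

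Of 24 genes of triglyceride synthesis and lipid droplets, 6 were higher and none lower (6 of 20 without outer spots, median 0.25 and 0.27, 0.07 with 75th percentile centring). Without each lean array and without obese array 4 only 1 was higher. Pnpla5, a lipase of lipid droplets that is not in this list and was named for the size of its difference, lay at 8.84 to 9.06 in lean and at 12.37, 13.22, 11.15 and 12.38 in obese liver (3.30 ± 0.38, 9.82-fold, adjusted p = 0.00234, held, also called with 75th percentile centring). Every obese value was over 2 log2 units above the lean ones, on an outer probe in the first column. Fitm2, which helps droplets form, was higher by 0.76 ± 0.12 (adjusted p = 0.00899, held). Dgat2, which makes triglyceride, was higher by 1.33 ± 0.31, the lipase inhibitor G0s2 by 1.00 ± 0.23, the droplet enzyme Hsd17b13 by 0.73 and the acyltransferases Agpat2 and Agpat3 by 0.94 and 0.78. Those 5 calls were lost without each lean array and without obese array 4 (adjusted p up to 0.0879, 0.0812, 0.0789, 0.111 and 0.0864), and G0s2 also without obese array 3. Hsd17b13 turned to -0.06 with 75th percentile centring.

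Among 24 genes of fatty acid uptake and binding, 5 were higher and 4 lower, but without outer spots 5 of 19 were higher and 1 lower (median 0.00 and 0.16, -0.39 with 75th percentile centring), and 3 were higher without lean arrays 1 and 3. Fabp2, a binding protein best known from intestine, lay at 8.25, 8.46, 8.45 and 8.18 against 10.50, 9.98, 10.31 and 10.66 (2.03 ± 0.15, 4.08-fold, adjusted p = 0.000462). The fatty acid transporter Cd36 lay at 7.47, 7.80, 7.72 and 7.72 against 8.59, 9.63, 9.60 and 9.65 (1.69 ± 0.24, adjusted p = 0.00508, 1.73 without its outer spots). In both genes the groups did not overlap, and both calls held and also passed with 75th percentile centring. Obese array 1 was the lowest obese value of Cd36. Fabp5 was higher by 1.42 ± 0.27 (lost without lean arrays 1, 3 and 4, adjusted p up to 0.0539) and the acyl-CoA binding protein Dbi by 0.57 (held, but -0.40 with 75th percentile centring and -0.03 for the mean of its probes). Fabp4, a binding protein of adipocytes, was not well above background on any lean array and at least 1.27-fold higher in obese liver (adjusted p = 0.0183, lost without lean arrays 1, 2 and 3, to 0.0615). It passed the background filter through the obese arrays alone, so its p-value and call lend no support. The higher count of this list includes it. The acyl-CoA synthetase Acsl3 was lower by a difference of -0.64 ± 0.12, lost without lean array 1 (adjusted p = 0.0502). The other 3 lower genes, the binding protein Fabp7 (-2.45) and the acyl-CoA synthetases Acsm2 (-1.62) and Acsm3 (-1.78), were read on outer probes. Among 22 lipoprotein genes 5 were higher, and 2 of 16 without outer spots (median 0.18 and 0.19, -0.60 with 75th percentile centring), and 1 or none without a lean array or obese array 4. Apoa1 of HDL was higher by 0.59 and Apon by 0.38, lost without each lean array and obese array 4 (adjusted p up to 0.105 and 0.11, Apon also without obese array 3), and both turned negative with 75th percentile centring (-0.39 and -0.34). Apob, the core protein of VLDL, was higher by 0.70 on an outer probe (0.55 and not called without outer spots, -0.25 with 75th percentile centring, lost without lean arrays 2, 3 and 4 and obese arrays 3 and 4, up to 0.0906). Tm6sf2, which helps lipidate VLDL, was higher by 1.20 on an outer probe (lost without each lean array and obese array 1, up to 0.102). Apoa4 was not called on an outer probe (-0.24 ± 0.37, adjusted p = 0.712, no value on obese array 3).

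Of 23 genes of mitochondrial beta-oxidation and ketogenesis 7 were higher and 1 lower, and 7 of 15 without outer spots with none lower (median 0.36 and 0.54, but -0.37 with 75th percentile centring). Of 35 genes of peroxisomal oxidation and PPAR alpha targets 8 were higher and 1 lower, and 7 of 25 without outer spots with none lower (median 0.39 and 0.42, 0.09 with 75th percentile centring). In the first list 2 or 3 were higher without a lean array, 4 without obese array 4 and 11 without obese array 2, and in the other list 3 without each lean array. Eci1, which isomerises unsaturated acyl-CoAs, lay at 12.42, 12.10, 12.31 and 12.23 in lean and 13.53, 13.68, 14.04 and 13.63 in obese liver (1.46 ± 0.12, adjusted p = 0.000708). The trifunctional protein subunit Hadhb was higher by 1.40 ± 0.13 (adjusted p = 0.000919) and the peroxisomal thiolase Acaa1b by 1.63 ± 0.12 (adjusted p = 0.000476). These 3 held. The other subunit, Hadha, was higher by 0.80 ± 0.14 (lost without lean arrays 3 and 4, adjusted p up to 0.0551, no value on obese array 4, and -0.13 with 75th percentile centring). Acadm, the medium-chain dehydrogenase, read lower at -0.58 on an outer probe (lost without lean arrays 1 and 4, adjusted p up to 0.0541), and Acaa2 stood at -1.26 without a call on an outer probe and at 0.85 with a call on an inner one.

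Fgf21, the hormone that liver releases under PPAR alpha, was among the largest differences. It lay at 7.26, 8.17, 9.61 and 8.36 in lean and at 10.75, 11.53, 11.72 and 11.15 in obese liver. The lean arrays spread over more than 2 log2 units and still stayed below each obese array (2.94 ± 0.47, 7.65-fold, adjusted p = 0.0081, held, also called with 75th percentile centring). Cpt1a, the gate of fatty acid entry into mitochondria, lay at 9.94, 9.32, 9.45 and 9.79 against 10.18, 11.90, 11.33 and 11.24 (1.54 ± 0.34, adjusted p = 0.0253), with obese array 1 only just above the lean arrays. The pantetheinase Vnn1, a PPAR alpha target, was higher by 1.47 ± 0.35 and the thioesterase Acot1 by 0.42. These 3 calls were lost without each lean array and obese array 4 (adjusted p up to 0.077, 0.0912 and 0.0822), and that of Cpt1a also without obese array 3. The omega-hydroxylase Cyp4a1, a classic PPAR alpha target, lay at 7.66, 10.95, 11.81 and 11.24 in lean and at 7.04, 14.17, 14.45 and 13.05 in obese liver. On both slides array 1 was far below the rest, and the difference of 1.76 ± 1.75 was not called (adjusted p = 0.539). Without obese array 1 it was 3.48. On outer probes the peroxisomal carrier Abcd3 was higher by 0.70 (-0.11 with 75th percentile centring) and the thioesterase Acot3 lower (-0.69), and both held. Pdk4, which blocks pyruvate use, was not called (0.31 ± 0.12, adjusted p = 0.108).

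**Figure D4:**
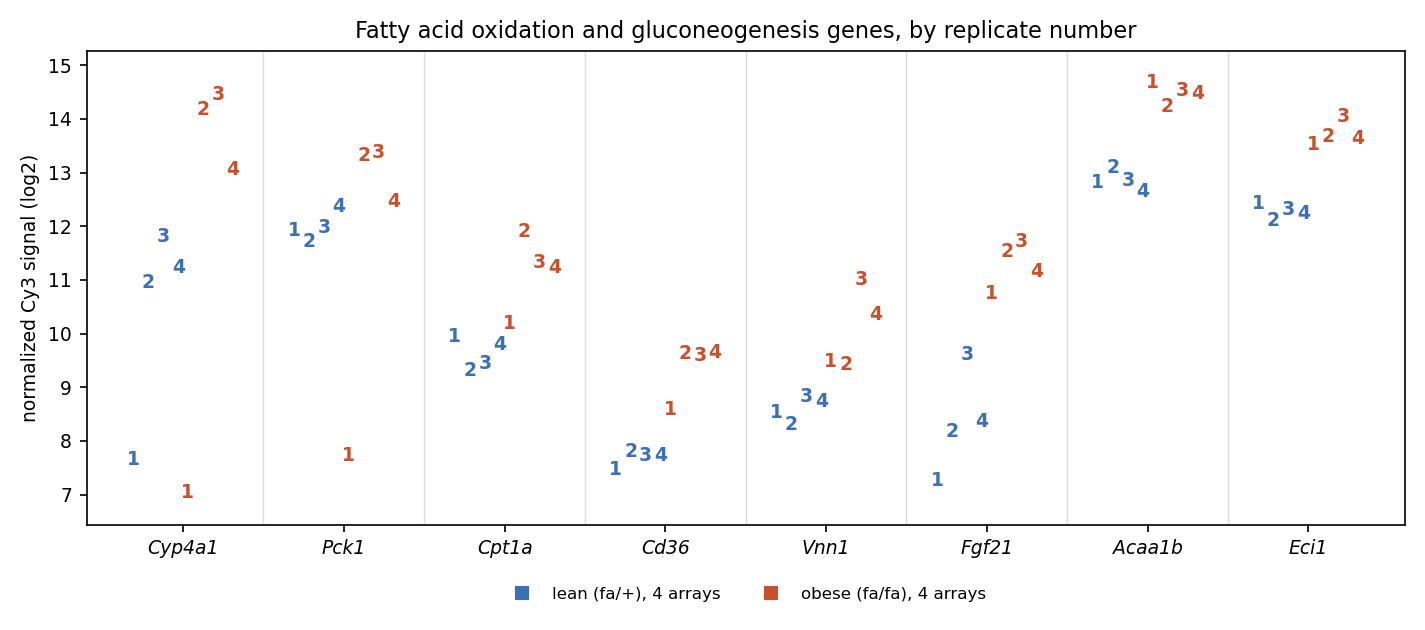
Normalized Cy3 level (log2) of 8 genes, with each array drawn as its replicate number, lean in blue and obese in orange. Obese replicate 1 lies at 7.04 for Cyp4a1 and 7.72 for Pck1, far below the other obese arrays, while for Acaa1b and Eci1 it lies close to them.

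Of 34 genes of glucose production, glycolysis and glycogen, 4 were higher and none lower (4 of 29 without outer spots, 7 of 34 without obese array 1, 2 without lean array 1, median 0.13 and 0.10). The higher count was near the share of all named genes (9.71% higher and 6.11% lower). Slc2a5, the fructose carrier, varied little within each group, at 10.15, 10.11, 10.25 and 10.22 in lean and 12.45, 12.55, 12.31 and 12.36 in obese liver (2.23 ± 0.067, 4.71-fold, adjusted p = 8.8e-06). The pyruvate dehydrogenase kinase Pdk2 was higher by 1.19 ± 0.20 (adjusted p = 0.00937), and both calls held. Lactate dehydrogenase Ldha was higher by 1.68 ± 0.32 (lost without lean array 1, adjusted p = 0.0505) and the gluconeogenic Fbp1 by 0.41 (lost without lean arrays 1, 3 and 4, up to 0.0686), but Fbp1 turned to -0.47 with 75th percentile centring and -0.04 with processed signals. Pklr, the liver pyruvate kinase, had no overlap between groups and missed the threshold (1.64 ± 0.47, adjusted p = 0.0552). The gluconeogenic G6pc1 stood at -0.26 ± 0.20 (adjusted p = 0.418). Pck1, the other gluconeogenic gate, lay at 11.92, 11.72, 11.98 and 12.37 in lean and at 7.72, 13.32, 13.37 and 12.46 in obese liver. Its mean difference of -0.28 ± 1.20 rests on obese array 1, without which it was 1.06 (adjusted p = 0.0313).

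The insulin and IGF axis had 4 higher and 3 lower genes of 28 (4 and 2 of 27 without outer spots, median 0.14 and 0.12, -0.04 with 75th percentile centring). Without a lean array 2 or 3 were higher and none to 2 lower, and without obese array 4 1 was lower. Igfbp1, an IGF binding protein that insulin represses, lay at 10.17, 10.54, 10.78 and 11.12 in lean and 9.42, 9.73, 9.66 and 9.10 in obese liver. The groups did not overlap (-1.18 ± 0.22, adjusted p = 0.0144, also called with 75th percentile centring, lost without lean array 3 at 0.0504). Igfbp3 was lower by a difference of -0.67 and the activin subunit Inhbe higher by 1.21 (both lost without each lean array and obese array 4, adjusted p up to 0.08 and 0.105, Inhbe also without obese array 2). The glucagon receptor Gcgr was higher by 0.59 ± 0.091 (-0.27 with 75th percentile centring), the receptor Igf2r by 0.72 ± 0.10, and both held, whereas the factor Foxa1, higher by 0.72, was lost without lean arrays 1, 2 and 3 (up to 0.0639). Igf1 (0.30 ± 0.11, adjusted p = 0.117) and Igfbp2 (-0.30 ± 0.10, adjusted p = 0.0884) were not called.

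Cholesterol synthesis had more lower than higher genes, 7 lower and 1 higher of 20 tested (4 and 1 of 16 without outer spots). Its median was -0.36 (-0.31 without outer spots, -0.94 with 75th percentile centring, where 5 were lower), and with 1 array left out 4 to 10 were lower (4 without lean array 1, 10 without obese array 2) and none to 2 higher. Idi1, the isomerase at the start of the isoprenoid route, lay at 12.02, 11.96, 11.96 and 12.02 in lean and 9.68, 9.13, 10.28 and 10.29 in obese liver (-2.14 ± 0.25, 4.42-fold, adjusted p = 0.00236, a second probe -1.46). Lean values were nearly equal and all above the obese ones. Sqle, the squalene epoxidase, lay at 10.87, 10.89, 10.71 and 10.89 against 9.92, 9.58, 9.65 and 9.59 (-1.15 ± 0.089, adjusted p = 0.000522). Acat2, the cytosolic thiolase that starts the pathway, stood at -0.86 ± 0.12 (adjusted p = 0.00482). These 3 calls held, those of Idi1 and Sqle under every alternative run. Msmo1 was lower by -0.82 (lost without each lean array, adjusted p up to 0.0686), while Ebp (-1.31) and Hmgcs1 (-1.45, lost without lean array 1 at 0.0502) were read on outer probes (a second probe of Hmgcs1 gave -0.97, and Ebp had no value on obese array 4).

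Among 17 genes of sterol sensing, uptake and efflux 2 were higher and 2 lower (2 and 1 of 14 without outer spots, median 0.09 and 0.20, -0.20 with 75th percentile centring). Without obese array 1 5 were lower, without obese array 2 5 were higher, and without each lean array 1 was higher and 1 lower. The exporter Abca1 was higher by 0.42 ± 0.069 (held) and the liver X receptor Nr1h2 by 0.94 (lost without each lean array, adjusted p up to 0.0794). Abcg5, which exports sterols into bile, stood at -3.42 on an outer probe. Its partner Abcg8 was not well above background on any obese array and at least 1.16-fold lower (adjusted p = 0.0422, lost without 7 of the 8 arrays, the exception being obese array 3, up to 0.124, and 0.23 with 75th percentile centring). Abcg8 passed the background filter through the lean arrays alone, so its p-value and call lend no support. The lower count of this list includes it. Of 25 bile acid genes 2 were higher and 1 lower, and 2 of 20 without outer spots with none lower (median 0.15 and 0.11, -0.18 with 75th percentile centring), and 1 or none was higher without a lean array and 4 without obese array 2. The bile acid receptor Nr1h4 was higher by 0.63 (lost without each lean array and obese array 4, up to 0.0753) and the hydroxylase Cyp39a1 by 0.56 (lost without lean arrays 2, 3 and 4, up to 0.0623). Cyp7a1, the rate-limiting enzyme of bile acid synthesis (-0.06 ± 0.47, adjusted p = 0.946, outer probe, no value on obese array 1), Cyp8b1 (0.73 ± 0.39, outer probe, no value on obese array 3) and Cyp7b1 (0.15 ± 0.16) were not called. The bile salt export pump Abcb11 missed the threshold (0.49 ± 0.15, adjusted p = 0.0704).

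Male-biased genes had the highest share of lower calls of any list and no higher call. Of 16 tested, 7 were lower, and 5 of 10 without outer spots (median -0.61 and -0.91, -1.57 with 75th percentile centring, where 7 were lower too). With 1 array left out 7 or 8 were lower, and 1 was higher without obese array 4. Stac3, a gene best known from muscle, lay at 13.67, 13.57, 13.28 and 13.65 in lean and 11.46, 12.02, 11.20 and 11.38 in obese liver (-2.03 ± 0.18, 4.08-fold, adjusted p = 0.000858). The steroid hydroxylase Cyp3a18 lay at 13.49, 13.04, 13.38 and 13.26 against 10.69, 9.62, 11.44 and 11.48 (-2.49 ± 0.40, 5.60-fold, adjusted p = 0.00789). Hsd11b1, which regenerates active glucocorticoid, stood at -1.55 ± 0.12 (adjusted p = 0.000491, a second probe -2.15) and Obp3, a urinary odorant-binding protein, at -1.26 ± 0.17 (adjusted p = 0.00422). These 4 calls passed under every alternative run. Rup2, a urinary protein, gave -4.45 on an outer probe with 1 obese value and -1.09 on an inner one, both called. Cyp3a2 (-4.89) and the carbonic anhydrase Car3 (-2.51) were read on outer probes alone. Cyp2c11, the main male-specific hydroxylase, was abundant on every array (lean 16.07 to 16.46, obese 15.48 to 16.22) and not called (-0.49 ± 0.17, adjusted p = 0.0926, outer probe).

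Female-biased genes were split, with 4 higher and 2 lower of 10, the same counts without outer spots (median 0.60 in both, 0.15 with 75th percentile centring, where 2 were higher and 2 lower). With 1 array left out 4 or 5 were higher, and without a lean array 1 or none was lower. Cyp2c12, the main female-specific hydroxylase, lay at 7.57, 7.51, 7.82 and 7.61 in lean and 9.38, 9.0, 9.39 and 9.73 in obese liver (1.75 ± 0.15, 3.36-fold, adjusted p = 0.000761). The prolactin receptor Prlr lay at 7.21 to 7.75 against 8.61 to 9.47 (1.66 ± 0.20, adjusted p = 0.00248, outer spots left out 1.71). Both were also called with 75th percentile centring. Srd5a1, the enzyme that reduces testosterone and other steroids, lay at 11.90, 11.80, 12.04 and 12.17 against 12.89, 13.67, 13.09 and 13.41 (1.29 ± 0.17, adjusted p = 0.004, a second probe 0.85), and the sulphotransferase Sult2a6 was higher by 1.42 ± 0.25 (adjusted p = 0.0116). All 4 held. The oxidase Hao2 (-1.42 ± 0.29) and Cyp3a9 (-1.39 ± 0.29) were lower, calls lost without each lean array for Hao2 (adjusted p up to 0.0601) and without lean arrays 1, 2 and 4 for Cyp3a9 (up to 0.0617).

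**Figure D5:**
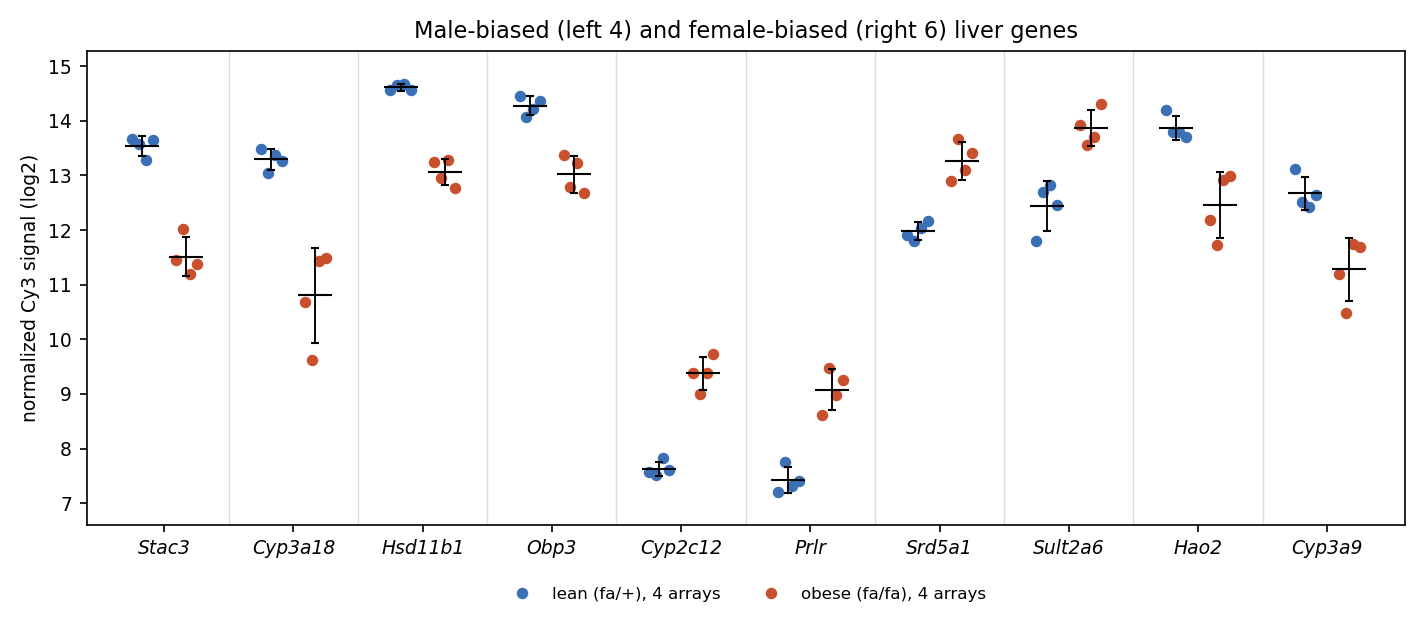
Normalized Cy3 level (log2) of male-biased (left 4) and female-biased (right 6) liver genes on each lean (blue) and obese (orange) array, with black lines for the mean and SD of 4 arrays. The 4 male-biased genes and Hao2 and Cyp3a9 lie lower in obese liver, and the other 4 female-biased genes lie higher.

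Of 21 genes of leptin and growth hormone signalling 2 were higher and 2 lower, and 2 of 15 without outer spots with none lower (median -0.04 and 0.15, 0.05 with 75th percentile centring), and 4 were higher without obese array 2, while 1 was lower without each array but obese array 1. Lepr itself lay at 7.53, 7.28, 7.37 and 7.50 in lean and 7.29, 7.46, 7.52 and 7.60 in obese liver and was not called (0.05 ± 0.086, adjusted p = 0.75). The fa allele changes the receptor protein and does not remove its transcript, so this level does not check the labels. The growth hormone receptor Ghr was higher by 0.84 ± 0.077 (adjusted p = 0.000945, held, other probes 0.81 and -0.22). Cish (-1.08 ± 0.17) and Socs2 (-0.90, lost without 7 of the 8 arrays, the exception being obese array 1, adjusted p up to 0.113), both feedback inhibitors that growth hormone induces, were read lower on outer probes alone. Steroid hormone genes had 6 higher and 3 lower of 28 (5 and 2 of 24 without outer spots, median 0.01 and 0.00, -0.40 with 75th percentile centring), and 3 were higher without each lean array. Cyp17a1, the hydroxylase and lyase of androgen synthesis, lay at 7.98, 8.21, 8.33 and 7.86 in lean and 10.57, 10.57, 10.81 and 10.99 in obese liver (2.64 ± 0.14, 6.22-fold, adjusted p = 0.00012, called under every alternative run). The aldo-keto reductase Akr1c3 was higher by 0.92 ± 0.10 and the second 5-alpha reductase Srd5a2 lower by -0.65, and both held.

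Drug metabolism genes had 6 higher and 10 lower of 55, and 4 and 5 of 41 without outer spots (median -0.03 and 0.12, -0.80 with 75th percentile centring), with 12 and 11 of 54 without obese array 1 and 3 higher without each lean array. Over all named genes 9.71% were higher and 6.11% lower, and the higher count of this list was near that share. The carboxylesterase Ces1d lay at 15.26, 15.02, 14.94 and 15.05 in lean and 12.84, 11.84, 12.49 and 12.81 in obese liver (-2.57 ± 0.22, 5.94-fold, adjusted p = 0.000734, called under every alternative run). Nr1i3, the receptor CAR that senses foreign compounds, stood at -0.78 (held, adjusted p = 0.00879). The oxygenase Fmo5 (-0.91) and the sulphotransferase Sult1c3 (-1.84) were lower on outer probes and held. The glucuronosyltransferase Ugt2b1 (-1.28) and the sulphotransferase Sult1c2 (-1.48) were lower, lost without lean arrays 2, 3 and 4 (adjusted p up to 0.0555) and without each lean array (up to 0.0636). The cytochrome Cyp2j3 was lower by -1.0 and Cyp2d2 higher by 1.24, both lost without each lean array and obese array 4 (up to 0.0982 and 0.0921), Cyp2j3 also without obese array 3.

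Clock genes were led by Dbp, the largest higher difference among named genes. Of 18 tested genes 5 were higher and 2 lower, and 3 and 1 of 16 without outer spots (median 0.28 in both, 0.38 with 75th percentile centring). Without a lean array 1 or 2 were higher and none lower, and the same held without obese array 4 (2 higher), while 1 was lower without obese arrays 2 and 3. Dbp, a transcription factor driven by the clock, lay at 8.0, 7.79, 8.30 and 8.06 in lean and 11.54, 12.92, 11.97 and 12.24 in obese liver. All obese arrays were over 3 log2 units above all lean arrays (4.13 ± 0.28, 17.5-fold, adjusted p = 0.000316, called under every alternative run). Bmal1, the clock activator whose peak lies opposite, lay at 10.03, 10.25, 10.05 and 9.96 against 9.80, 9.63, 9.11 and 9.43 (-0.58 ± 0.15, adjusted p = 0.0385). The related factor Tef was higher by 0.50 on an outer probe, Nr1d2 by 0.36 and Per3 by 0.27. Bmal1, Nr1d2 and Per3 were lost without each lean array and obese array 4 (adjusted p up to 0.106, 0.0745 and 0.116), Nr1d2 and Per3 also without obese array 3, and Tef without lean arrays 2 and 4 (up to 0.0595).

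Amino acid breakdown and urea cycle genes had 9 higher and 3 lower of 42 (9 and 2 of 39 without outer spots, median 0.26 and 0.35, -0.32 with 75th percentile centring). Without obese array 1 6 were lower, and without a lean array 3 to 5 were higher. Bckdhb, a subunit of branched-chain ketoacid dehydrogenase, was higher by 1.03 ± 0.11 (adjusted p = 0.00165), alanine aminotransferase Gpt by 0.92 ± 0.13 and Agxt by 1.30 ± 0.24, while Csad, which makes taurine, was lower (-1.51 ± 0.28, adjusted p = 0.0144). These 4 held. Respiratory chain genes had 12 higher and 2 lower of 45, and 10 and none of 36 without outer spots (median 0.16 and 0.21, but -0.69 with 75th percentile centring). Without obese array 1 16 were higher and 5 lower, and without a lean array or obese array 4 6 or 7 were higher. The complex I subunit Ndufv2 was higher by 1.07 ± 0.083 (adjusted p = 0.000529) and the complex III subunit Uqcrfs1 by 0.90 ± 0.11, both held. The complex II subunit Sdhc was lower on an outer probe (-1.05, held). Of 27 NRF2 targets and antioxidant enzymes 5 were higher and none lower (6 of 21 without outer spots, median 0.14 and 0.31, -0.36 with 75th percentile centring). Without obese array 1 4 were higher and 3 lower, and without each lean array 3 were higher. The higher ones included the peroxiredoxins Prdx6 (1.04 ± 0.12), Prdx4 (0.94 ± 0.089) and Prdx3 (0.81 ± 0.096), which held, and thioredoxin Txn1 (0.42, lost without each lean array, adjusted p up to 0.0684, -0.52 with 75th percentile centring and -0.06 with processed signals).

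Stress and inflammation lists showed calls in both directions, beside 9.71% higher and 6.11% lower among all named genes. The acute phase and extracellular matrix counts were near these shares and are no result about those lists. ER stress genes had 2 higher and 4 lower of 27, and 2 and 1 of 23 without outer spots (median -0.12 and 0.02, -0.47 with 75th percentile centring), and 1 or 2 were lower without a lean array or obese array 4. Herpud1, which helps clear misfolded proteins, was higher by 1.40 ± 0.18 (adjusted p = 0.00293, a second probe 2.29) and Pdia6 by 0.47 (-0.28 with 75th percentile centring), both held, and the chaperone Hsp90b1 was lower by -0.91 (lost without each lean array and obese array 4, adjusted p up to 0.0889). Creld2 (-0.76, held) and Sdf2l1 (-0.94, lost without each lean array, up to 0.0574) were lower on outer probes. Acute phase genes had 4 higher and 2 lower of 34 (4 and 1 of 32 without outer spots, 12 and 2 without obese array 1, 7 and 2 without obese array 2, 5 and 4 without obese array 3, median 0.22 and 0.27, -0.42 with 75th percentile centring). Orm1 was higher by 1.01 ± 0.12 (adjusted p = 0.00241) and the protease inhibitor A2m lower by -1.50 ± 0.25 (adjusted p = 0.00927), both held. The metalloreductase Steap4 was higher by 0.43 (held), and the lipopolysaccharide binding protein Lbp stood at -2.38 on an outer probe (held). Extracellular matrix genes had 3 higher and 1 lower of 30 (2 and none of 27 without outer spots, median 0.16 in both, -0.12 with 75th percentile centring, 1 or 2 higher and none lower without a lean array, 3 and 2 without obese array 3), with Col18a1 at 0.47 (held) and Col3a1 at 0.59 (lost without each lean array and obese array 3, up to 0.0958), which turned to -0.30 and -0.08 with 75th percentile centring. The matrix protein Tgfbi (0.65, -0.27 with 75th percentile centring and -0.08 for the mean of its probes, lost without lean arrays 2, 3 and 4, up to 0.0513) and the protease Mmp2 (-0.45, lost without each lean array and obese arrays 1 and 4, up to 0.121) had outer spots, without which they stood at 0.61 and -0.29 and were not called. Cell cycle genes had 7 higher and 2 lower of 26, and 8 and none of 22 without outer spots (median 0.24 and 0.26, 0.51 with 75th percentile centring), and 2 or 3 were higher without a lean array and 4 without obese array 4. The cyclins Ccne1 (0.95 ± 0.11, adjusted p = 0.00258) and Ccnb2 (0.48 ± 0.091) were higher and held, that of Ccne1 also passing with 75th percentile centring, and Ccna2 was higher by 0.66 (lost without each lean array, up to 0.0822). Pcna, the sliding clamp of replication, was called in opposite directions, at -2.48 on an outer probe and 0.38 on an inner one.

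Markers of the cell types that whole liver can hold were measured beside these genes. Of 11 hepatocyte markers 2 were higher and none lower (mean level 14.58 to 14.78 on lean and 14.56 to 15.28 on obese arrays), with Alb at 0.72 (-0.17 with 75th percentile centring, lost without each lean array, adjusted p up to 0.0687) and Cps1 at 1.05 (lost without each lean array and obese array 1, up to 0.0998). Rbp4 (0.27) and transferrin Tf (-0.34, outer probe) were not called. None of 12 Kupffer cell and macrophage markers was called (limma, mean level 9.91 to 10.35 and 9.94 to 10.36, 4 at an unadjusted p under 0.05), with Clec4f at -0.67, C1qa at -0.89, Lyz2 at 0.45 and Vsig4 at 0.72, and without obese array 1 2 were higher and 2 lower. Without each lean array no hepatocyte marker and 1 stellate cell marker was higher. Of 10 stellate cell markers 3 were higher and 1 lower (9.27 to 9.33 and 9.30 to 9.57), with Lrat, which stores retinol, lower (-0.94 ± 0.18, held). Pdgfrb was higher by 0.47 (lost without each lean array and obese arrays 2 and 4, up to 0.116). Without an obese array 2 or 3 stellate cell markers were higher and 1 lower. With 75th percentile centring none was higher and 1 lower. Of 9 lymphocyte markers 3 were lower (7.34 to 7.48 and 6.99 to 7.23) and 1 of 4 without outer spots. These were Cd3d (-0.82, held) and Cd3g (-0.31, lost without each lean array and obese arrays 3 and 4, up to 0.0883) on outer probes and Gzmb (-0.59, held) on an inner one, while Cd79b was not called (-0.18). Endothelial markers had 1 higher and 1 lower of 8 (9.15 to 9.27 and 8.98 to 9.04). Emcn was higher by 0.31 (lost without each lean array and obese arrays 3 and 4, up to 0.092), Tek, on an outer probe, was not well above background on any obese array and at least 1.63-fold lower (adjusted p = 0.00183, held, but 0.96 with processed signals and 0.04 where a probe had to be above background on all arrays), and Lyve1 (-0.57) and Pecam1 (-0.16) were not called. Tek passed the background filter through the lean arrays alone, so its p-value and call lend no support. The lower count of endothelial markers is that call. Of 6 cholangiocyte markers 1, Cldn4, was lower (-1.0, held), and Epcam (0.18) and Krt19 (-0.15) were not called (7.80 to 7.85 and 7.59 to 7.93). Of 4 adipocyte markers Fabp4 was higher and Cfd lower (-0.82, held), and Lipe (0.16) and Retn (0.09) were not called (7.99 to 8.07 and 7.93 to 8.04). The call of Fabp4, which is the higher count of adipocyte markers, lends no support, as it passed the background filter through the obese arrays alone. Adipoq and Lep were not tested because too few arrays were above background. Of 6 erythroid markers 2 were higher (9.40 to 10.25 and 9.97 to 10.92), the globin Hbb-b1 by 1.13 ± 0.21 (held) and the membrane protein Slc4a1 by 0.63 (lost without outer spots, without each lean array and without obese arrays 1, 2 and 4, up to 0.12), while Hbb (1.22 ± 0.57) and Hbe2 (-0.34) were not. None of the 2 neutrophil markers tested, S100a8 (-0.05) and S100a9 (0.23), and none of 8 pancreas markers, among them Cela1 (-0.84), Ctrb1 (-0.20), Ins1 (-0.10) and Cpb1 (-0.07), was called (limma, 0 and 1 at an unadjusted p under 0.05). Their part in the differences of other genes was not tested.

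Of the remaining genes named for the size of their difference, 5 were higher. Mfsd2a, a carrier of lysophospholipids such as those with docosahexaenoate, lay at 10.05, 9.90, 10.50 and 10.04 in lean and 12.59, 13.16, 12.80 and 13.21 in obese liver (2.82 ± 0.18, 7.04-fold, adjusted p = 0.000263, called under every alternative run). Sult2a2, a sulphotransferase of steroids and bile acids, was higher by 2.53 ± 0.32, the secreted protein Wfdc21 by 2.39 ± 0.12, the interferon-induced Bst2 by 2.19 ± 0.21 and the tetraspanin Tspan31 by 2.08 ± 0.14. All 5 held, and Sult2a2 was also called with 75th percentile centring. Of the 15 genes with the largest lower differences, 14 sat on outer probes. They included Akr1d1, Pecr, Gjd4, Cyp3a2, Rup2, Dusp8, Dnajc19, Cyp2b12, Abcg5, Tff1, Foxc2 and Ces1dl1, at -7.03 to -2.71, where an inner probe of Rup2 gave -1.09 and second probes of Akr1d1 and Dnajc19 gave -0.46 and -0.33. Akr1d1, Pecr, Rup2 and Cyp2b12 had a value on only 1 obese array and Dusp8 on only 1 lean array. Gjd4 (-5.03) was lost without each lean array (adjusted p up to 0.0754). For the genes with a value on only 1 array of a group, the spread of that group was not measured. The remaining one was Marcksl1, a cytoskeletal regulator, at 13.80, 13.31, 13.27 and 13.45 in lean and 11.81, 10.68, 11.20 and 9.55 in obese liver (-2.65 ± 0.44, adjusted p = 0.00917). Away from the rim, and chosen after their values were seen, the next were the receptor Gfra1 (-2.63 ± 0.23, a second probe -1.02), Ces1d, Cyp3a18 and the acetyltransferase Nat8 (-2.42 ± 0.25), and the receptor Notch1 stood at -1.60 ± 0.15. Of these, the 6 calls passed under every alternative run.

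Whether the genotype difference was of another size in rats given TU was tested on the ratios within arrays. Of 23900 features 1 was called (0.00418%, 1894 at an unadjusted p under 0.05), and none was called with outer spots left out (limma, 1402 of 18714 at an unadjusted p under 0.05). The difference under TU, set beside that under vehicle, was 2.92 and 2.69 for Fasn, 1.04 and 2.01 for Scd, 2.21 and 2.94 for Fgf21, 1.46 and 2.82 for Mfsd2a and 1.64 and 3.30 for Pnpla5. It was 3.72 and 4.13 for Dbp, -2.28 and -2.49 for Cyp3a18, -2.75 and -2.03 for Stac3, 1.72 and 1.75 for Cyp2c12 and -1.48 and -2.14 for Idi1. The test of the change in size gave an adjusted p of 0.614 for Mfsd2a and Pnpla5 (-1.35 ± 0.28 and -1.65 ± 0.49) and from 0.628 (Scd) to 0.915 (Cyp2c12) for the others named here. Of the features with the lowest p for that change, those named are Afp (0.84, adjusted p = 0.27), Cptp (0.60, 0.386), Or4f7c (-0.57, 0.488) and Rin3 (0.73, 0.488), and these 4 were not called.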

How the data were processed

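Each array compared vehicle liver (Cy3) with TU liver (Cy5) of the same genotype, and the genotypes were compared in Cy3, with Cy5 entering the normalization. The deposited scanner files hold spot intensity values in both channels and log10 ratios of red over green. The header read, that of lean array 1, gives Agilent Feature Extraction 10.7.3.1. The series matrix holds the authors' deposited log2 ratios, used only as an alternative. Values were read in R 4.3.3 with data.table (version 1.17.8). In limma 3.58.1, median spot signals (in place of mean signals) were background corrected by normexp with an offset of 50, normalized within arrays by loess and between arrays by Aquantile, and Cy3 was taken from the result. Probes well above background in Cy3 on at least 4 of 8 arrays were kept, control spots and outlier flags were left out, and a gene took its brightest probe. Of 41012 probes, 17010 were named through RefSeq accessions, 16815 by the newer annotation of a lean array and 195 only by the older annotation of an obese array. The same names served all arrays. The fit used lmFit and eBayes with Benjamini-Hochberg adjustment over 23900 features at 0.05. The number of arrays limits the precision.

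The members, pathway lists and named genes were chosen with earlier results of these data known. Named were the 15 genes with the largest difference in each direction among called ones without overlap, the 4 lowest p in each list, 26 genes always, and the 5 lowest p for the change under TU, plus genes chosen after their values were seen. On simulated data for this comparison with 23900 features, 79% of 2-fold and 94% of 4-fold changes were recovered with 10 false calls. The simulated noise was independent, had equal spread in both groups, and held no slide, rim or single-array effect. These figures therefore do not give the recovery or false calls of the real comparison, where such effects were seen. Alternatives changed normalization, background correction, filter, probe choice, spread estimate, samples, replicate block and, chosen after seeing the data, outer spots. Some genes that this rule names are not reported here.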

Additional observations from a re-analysis of the deposited data

Results flagged for a closer look

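Of 400 groups of 4 arrays checked (200 genes), 20 had 1 array far from the other 3, and chance flags about 1 in 20 groups. On obese array 1, Pck1 stood at 7.72 (others 12.46 to 13.37) and Cd36 at 8.59 (9.60 to 9.65). On obese array 2, Acaca stood at 8.93 (7.64 to 7.80), Cyp2d2 at 14.54 (13.16 to 13.29), Orm1 at 15.99 and Alb at 17.74. On obese array 3, Mid1ip1 stood at 12.84, Nr1i3 at 7.48 and Bst2 at 11.88. On obese array 4, Acaa2 stood at 7.67 (13.41 to 13.84) on its outer probe. On lean array 1, Acacb stood at 6.75, Tecr at 12.53, Agxt at 11.11, Col18a1 at 13.45, Vsig4 at 8.40 and Afp at 12.66. On lean array 2, Acly stood at 14.81 and Fabp5 at 14.20, and on lean array 3 Sqle stood at 10.71 and Alb at 16.34.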

How the results depend on the processing

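The counts of 1821 higher and 1787 lower features moved most with 75th percentile centring, to 40 and 329, of which 36 and 295 were calls of the first fit. The lower count was 834 without outer spots and 3052 with processed signals, and the counts without the wider outer zone were 1116 and 487. Both outer zones were chosen after seeing the data. Leaving out 1 array gave 693 to 2723 higher and 811 to 2737 lower features. The replicate block gave 630 and 866, and same-numbered arrays did not all deviate together (r = 0.621, 0.0688, 0.412 and -0.0541), so the numbers were not taken as pairs and not every array correlated best with its own number. The count of features whose difference changed under TU was 1, against 2 from the authors' deposited ratios, 0 with median centring, without outer spots or with the replicate block, and 0 to 3 with 1 array left out. The spike-in difference stayed between -1.31 (with the normalization used for the genes) and -1.90 (raw signal).

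Among the genes named, signs turned with 75th percentile centring for Hsd17b13 (-0.06), Dbi (-0.40), Apob (-0.25), Apoa1 (-0.39), Apon (-0.34), Hadha (-0.13), Abcd3 (-0.11), Fbp1 (-0.47), Gcgr (-0.27), Abcg8 (0.23), Txn1 (-0.52), Pdia6 (-0.28), Col3a1 (-0.08), Col18a1 (-0.30), Tgfbi (-0.27) and Alb (-0.17). They turned with processed signals for Fbp1 and Col18a1 (both -0.04), Txn1 (-0.06) and Tek (0.96), and with the mean of probes for Dbi (-0.03) and Tgfbi (-0.08). Pcna turned to 0.38 without outer spots, without the wider zone and with the filter on 8 of 8 arrays, where Tek was 0.04. Mid1ip1 (0.17) and Acaa2 (0.85) turned without outer spots and Pck1, not called, ranged from -0.83 to 1.06 with 1 array left out. The cause was not tested. Of all values of single genes under an alternative, 3440 kept direction and side of the threshold, 517 lost a call, 54 gained one and 29 turned sign.

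Lean and obese arrays lay on different slides, so slide and genotype cannot be told apart. Both genotypes were read in Cy3, so dye effects could not be balanced. Signals near background give bounds only.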
